A study of Homo sapiens with 32 samples.

Results

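The replication-dependent histone genes of the human genome lie in a few dense clusters, and the m6A peaks called over these clusters in PANC-1 cells are described here. Members were chosen by position alone: every peak that overlapped 1 of 4 stretches of the hg19 build by at least 1 base. Of these, 3 make up the HIST1 cluster on chromosome 6 (chr6:26017000-26290000, chr6:27090000-27125000 and chr6:27770000-27865000, called the first, the second and the third HIST1 stretch) and 1 is the HIST2 cluster (chr1:149780000-149860000). The stretches cover 483 kb and held 213 of 424904 peaks. Merged wherever peaks of any library overlapped, these formed 78 of the 174376 sites of the series, with 39 in the first, 8 in the second and 12 in the third HIST1 stretch and 19 in HIST2. The flanks set beside them are 1 Mb to each side of the clusters and the gaps between the HIST1 stretches, 5.445 Mb in all, and held 1562 peaks in 603 sites.

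PANC-1 is an established line of human pancreatic ductal adenocarcinoma cells. Total RNA was fragmented, fragments carrying N6-methyladenosine (m6A) were bound by an antibody, and bound and input fragments were sequenced. The groups were control cells, a knockout of CFL1 (cofilin 1, which severs actin filaments) and a knockout of METTL3 (the catalytic subunit of the main m6A methyltransferase of messenger RNA), each with 2 peak libraries. These are called by the numbers that the peak names carry, 1 and 2 for control and 3 and 5 for either knockout. Peak names of both knockouts also contain "si", which the labels do not explain. The labels' word, knockout, is used throughout, but whether the genes were knocked out or knocked down cannot be read from the peak lists. Each group's peak names show a different folder path. Whether the groups were processed together is not stated, so any such difference cannot be told apart from the groups. The sources used here do not give the clones, the guides or the nature of the control. Loss of either protein cannot be seen in a peak list. Nothing states that a group's libraries are from separate cultures, so p-values measure only the spread between these libraries, which may be technical. Control 1 held 77603 peaks and control 2 held 79467, the CFL1 knockout libraries 72728 and 66295, and the METTL3 knockout libraries 63859 and 64952. Read depth is unknown.

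Replication-dependent histone genes encode the H1, H2A, H2B, H3 and H4 proteins that package newly made DNA, and they are transcribed mainly in S phase under the coactivator NPAT. Their transcripts have no introns and end in a stem-loop in place of a poly(A) tail. That end is bound by SLBP and cut with the help of the U7 snRNP. In messenger RNA, m6A is best known near stop codons and in long exons. RefSeq names 55 protein-coding genes of HIST1 (6 of H1, 12 of H2A, 15 of H2B, 10 of H3 and 12 of H4) and 12 of HIST2 (4 of H2A, 2 of H2B, 4 of H3 and 2 of H4). These counts go by cluster name. The genes were not placed on hg19, so some may lie outside the stretches, in the flanks or beyond. The peaks carry no strand and no hg19 annotation was used here, so sites are given by position and assigned to no gene. Genes that are not histone genes also lie within the HIST1 stretches, and a peak there need not come from a histone transcript.

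Part of HIST2 is a mirrored duplication. In RefSeq's order, H4C14, H3C14 and H2AC18 are followed by the pseudogenes H2BC19P and H2BC20P and then by H2AC19, H3C15 and H4C15, with each protein-coding gene on the opposite strand from its copy. The copies encode H4, H3 and H2A. The 250 bases upstream of the start of 1 gene of each pair are shown because the strongest peaks of the set fell in HIST2, and a read from within an exact copy cannot be placed by its sequence. They are from RefSeq (GRCh38.p14), read 5′ to 3′ on the gene's own strand, and capitals mark the longest run shared unbroken with the partner's window.
H4C14: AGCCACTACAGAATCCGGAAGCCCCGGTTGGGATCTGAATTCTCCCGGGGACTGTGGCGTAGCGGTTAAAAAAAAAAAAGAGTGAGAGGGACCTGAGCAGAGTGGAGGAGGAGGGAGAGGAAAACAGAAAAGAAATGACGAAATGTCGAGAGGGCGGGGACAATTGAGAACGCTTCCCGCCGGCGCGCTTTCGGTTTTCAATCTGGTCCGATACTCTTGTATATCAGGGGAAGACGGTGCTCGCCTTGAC
H3C14: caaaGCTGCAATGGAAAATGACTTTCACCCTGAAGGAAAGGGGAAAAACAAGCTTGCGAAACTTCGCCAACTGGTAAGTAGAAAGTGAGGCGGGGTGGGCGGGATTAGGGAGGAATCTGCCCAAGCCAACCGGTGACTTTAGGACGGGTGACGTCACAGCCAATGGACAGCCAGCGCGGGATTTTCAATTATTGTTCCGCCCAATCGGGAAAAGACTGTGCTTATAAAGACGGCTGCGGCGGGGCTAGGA
H2AC18: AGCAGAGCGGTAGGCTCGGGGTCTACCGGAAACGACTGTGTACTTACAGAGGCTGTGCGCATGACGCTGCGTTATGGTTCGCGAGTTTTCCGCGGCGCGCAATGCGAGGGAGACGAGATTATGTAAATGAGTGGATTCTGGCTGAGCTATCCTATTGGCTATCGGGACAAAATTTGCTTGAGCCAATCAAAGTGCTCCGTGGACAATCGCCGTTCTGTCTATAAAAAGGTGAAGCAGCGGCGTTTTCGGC
The shared run spans all 250 bases between H4C14 and H4C15, 246 bases between H3C14 and H3C15, and all 250 bases between H2AC18 and H2AC19. With the other genes of the same family, the longest shared run was 10 bases for H4C14 (10 other genes), 10 for H3C14 (10 other genes) and 12 for H2AC18 (13 other genes). The transcripts themselves were not compared. How the aligner placed reads that match both copies is not stated in the sources used here, so the peak values of the duplicated segment are uncertain, and the part of this in the results was not tested.

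Peaks over the histone stretches were more numerous in the METTL3 knockout than in the other 2 groups. Control 1 and 2 held 26 and 34 histone peaks, CFL1 knockout 3 and 5 held 28 and 30, and METTL3 knockout 3 and 5 held 47 and 48. Both METTL3 knockout libraries were above all 4 others, although they had the fewest peaks in total, and the control and CFL1 knockout libraries overlapped. As a share of a library's own peaks, the stretches held 0.0335% and 0.0428% in control, 0.0385% and 0.0453% in the CFL1 knockout, and 0.0736% and 0.0739% in the METTL3 knockout. The mean share in the METTL3 knockout was 1.93 times that in control and 1.76 times that in the CFL1 knockout, with no overlap between libraries (exact permutation test over libraries, two-sided, p = 0.333 for each). With 2 libraries against 2, 0.333 is the smallest p this test can give, so no comparison between groups here can pass 0.05. The CFL1 knockout share was 1.10 times that of control, and the libraries overlapped (exact permutation test, two-sided, p = 0.667). It was 0.979 times that of control without control 1. Both knockouts are compared with the same control libraries.

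The flanks did not show the same order. Control 1 had 291 flank peaks and control 2 had 301, the CFL1 knockout libraries 232 and 214, and the METTL3 knockout libraries 263 and 261. Here both knockouts were below control. The density of peaks in the stretches over that in the flanks was 1.01 and 1.27 in control, 1.36 and 1.58 in the CFL1 knockout, and 2.01 and 2.07 in the METTL3 knockout. The groups did not overlap: the mean ratio was 1.79 times control in the METTL3 knockout and 1.29 times control in the CFL1 knockout (exact permutation test, two-sided, p = 0.333 for each). For the CFL1 knockout the direction turned to 0.883 times control among peaks with a fold enrichment of at least 4, and to 0.632 without HIST2. Peaks covered 2.43% and 2.87% of the bases of the stretches in control, 3.31% and 3.35% in the CFL1 knockout, and 5.85% and 6.34% in the METTL3 knockout. Flank coverage stayed between 2.08% and 2.87% in all 6 libraries. HIST1 and HIST2 gave these sums in different ways, above all for the CFL1 knockout, and are therefore described separately.

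**Figure D1:**
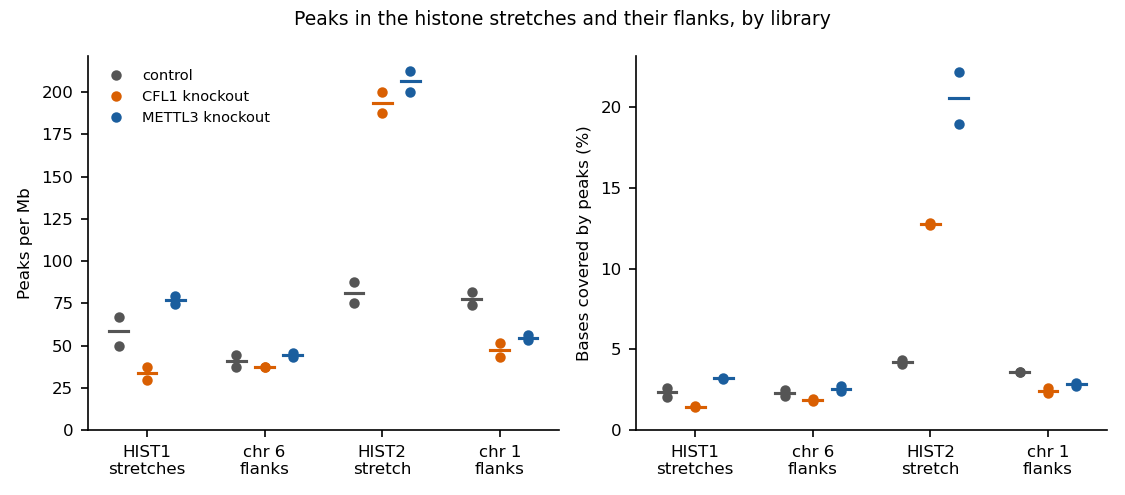
Peaks per Mb (left) and percent of bases covered by peaks (right) in the HIST1 stretches, the HIST2 stretch and their flanks; points are libraries (2 per group) and bars are group means. In HIST2 both knockouts lie at 187.5 peaks per Mb or more against at most 87.5 in control, while in HIST1 the CFL1 knockout lies below control and the METTL3 knockout above it.

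In the HIST2 stretch, peaks were more numerous in both knockouts than in control. Control 1 held 6 peaks there and control 2 held 7, the CFL1 knockout libraries 16 and 15, and the METTL3 knockout libraries 17 and 16. Every knockout library held more than either control library. The share of a library's peaks was 2.70 times control in the CFL1 knockout and 3.10 times control in the METTL3 knockout (exact permutation test, two-sided, p = 0.333 for each). The chromosome 1 flanks went the other way, from 81.5 and 74 peaks per Mb in control to 51.5 and 43 in the CFL1 knockout and 53 and 56.5 in the METTL3 knockout. Relative to these flanks, HIST2 density had a mean of 1.05 in control libraries, 4.12 with CFL1 knocked out and 3.77 with METTL3 knocked out.

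The 2 knockouts differed in how much of HIST2 the peaks covered and in how strong they were. Peaks covered 3.49 and 3.29 kb of the 80 kb in control 1 and 2, 10.2 and 10.3 kb in the CFL1 knockout, and 15.2 and 17.7 kb in the METTL3 knockout. The highest fold enrichment, a ratio over background given by the authors for each peak, was 13.1 in both control libraries, 13.7 and 20.1 in the CFL1 knockout, and 43.6 and 45.3 in the METTL3 knockout. The highest −log10 q, the peak caller's adjusted significance, was 80.2 and 112 in control, 69.3 and 104 in the CFL1 knockout, and 311 and 248 in the METTL3 knockout. For −log10 q the control and CFL1 knockout libraries overlapped, and both METTL3 knockout libraries were higher. A q value is set within a library and may vary with its depth, which is unknown.

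Nearly all HIST2 peaks lay in 1 block of 30.3 kb, chr1:149803208-149833517, whose bounds are the outermost sites called in at least 4 libraries and were set after the peaks had been seen. It held between 83.3% and 100% of each library's HIST2 peaks. Peaks covered 10.7% and 10.8% of the block in control 1 and 2, 32.9% and 33.2% in the CFL1 knockout, and 49.5% and 56.6% in the METTL3 knockout. In the knockout libraries the block looked mirrored about its centre at 149818362. Of the bases covered in the METTL3 knockout, 77.4% and 83.8% had a covered base at the same distance on the other side of the centre, and in the CFL1 knockout 69.3% and 71.9%. In control the values were 12.3% and 0%. These shares rise with coverage alone, and how the block lines up with the duplicated genes could not be read without the hg19 genome.

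**Figure D2:**
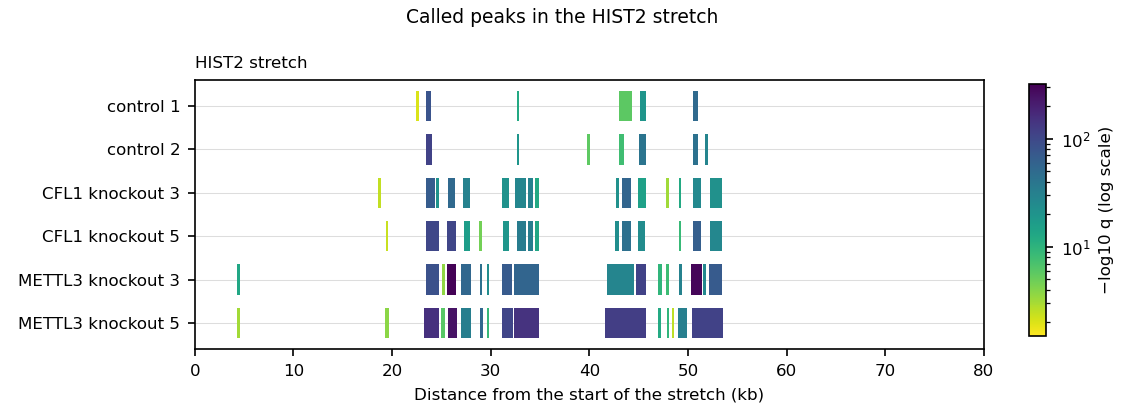
Peaks of each library along the HIST2 stretch, by distance from its start in kb; bars are called peaks, coloured by −log10 q on a log scale. Control 1 and 2 hold 6 and 7 peaks, the knockout libraries 15 to 17, nearly all within the same 30.3 kb. In the knockout libraries, most of the pattern repeats in reverse order about the middle of that block.

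The HIST2 sites called in all 6 libraries numbered 4. A library's value at a site is that of its peak there with the highest −log10 q. Within 1 merged site, these peaks can differ between libraries. The left edge of the block was such a site, chr1:149803208-149804800, with −log10 q of 80.2 and 112 in control, 69.3 and 101 in the CFL1 knockout, and 84.8 and 153 in the METTL3 knockout. The groups overlapped there in −log10 q. Fold enrichment of the strongest peak was 13.1 in both control libraries, 5.39 and 5.90 in the CFL1 knockout and 4.72 and 10.3 in the METTL3 knockout. The summits of these peaks differed. They lay at 149803567 and 149803569 in control, 149804246 and 149804251 in the CFL1 knockout, and 149804607 and 149804636 in the METTL3 knockout. The values are thus not for the same position. The right edge, chr1:149830353-149833517, had −log10 q of 51.4 and 43.0 in control, 25.5 and 65.0 in the CFL1 knockout, and 299 and 112 in the METTL3 knockout, above all others. METTL3 knockout 5 had 1 peak of 3138 bases there, with its summit at 149832355 and a fold enrichment of 6.67. The strongest peaks of the other libraries had summits from 149830819 to 149830999. Their fold enrichment was 43.6 in METTL3 knockout 3, 8.45 and 15.1 in the CFL1 knockout, and 6.31 and 4.47 in control. Nearer to 149832355, METTL3 knockout 3 had 3.62 and the CFL1 knockout 2.18 and 2.45. The 6.67 is thus not comparable with the other strongest peaks. At the sites between them, chr1:149812364-149814919 and chr1:149821617-149825798, the −log10 q of a library's strongest peak was lowest in both control libraries. It was highest in both METTL3 knockout libraries. At the first of these, −log10 q was 12.5 and 19.6 in control, 29.6 and 34.3 in the CFL1 knockout, and 57.4 and 145 in the METTL3 knockout. At the second it was 19.6 and 41.0, then 56.9 and 44.7, then 111 and 122. These were not all the same peak. At the first, summits lay at 149812737 and 149812744 in control and at 149814075 and 149814159 in the METTL3 knockout. At the second, control summits lay at 149825305 and 149825302. Near them, CFL1 knockout peaks had −log10 q of 15.1 and 24.2, so the CFL1 knockout was not above control there. By fold enrichment the CFL1 knockout overlapped another group at each: at the first, CFL1 knockout 5 had 3.39 and METTL3 knockout 3 had 3.26, and at the second, CFL1 knockout 5 had 3.96 and control had 4.33 and 5.73. The second spans 4182 bases, the widest histone site. Of the 19 HIST2 sites, 7 (36.8%) were at least 1 kb wide, beside 2 of 59 (3.39%) in HIST1 and 9.40% of all sites.

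The strongest site of the whole set was called in every knockout library and in neither control library. At chr1:149805534-149806593, the CFL1 knockout libraries had −log10 q of 52.2 and 104 and the METTL3 knockout libraries of 311 and 248. Its fold enrichment was 13.7 and 20.1 in the CFL1 knockout and 36.9 and 45.3 in the METTL3 knockout. No control peak touched it, which shows only that no peak was called there. The other sites of this kind in HIST2 were chr1:149806972-149808029, chr1:149811170-149812214 and chr1:149829001-149829940, with −log10 q from 8.71 to 30.4 in the CFL1 knockout and from 30.5 to 106 in the METTL3 knockout. At each of the 4, both METTL3 knockout libraries were above both CFL1 knockout libraries.

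The HIST1 stretches separated the 2 knockouts. Control 1 held 20 peaks there and control 2 held 27, the CFL1 knockout libraries 12 and 15, and the METTL3 knockout libraries 30 and 32. The CFL1 knockout libraries were thus below both control libraries and the METTL3 knockout libraries above both. As a share of the library's peaks, the CFL1 knockout was at 0.655 times control, the METTL3 knockout at 1.61 times control, and the METTL3 knockout at 2.46 times the CFL1 knockout (exact permutation test, two-sided, p = 0.333 for each). Density was 49.6 and 67.0 peaks per Mb in control, 29.8 and 37.2 in the CFL1 knockout, and 74.4 and 79.4 in the METTL3 knockout, while the chromosome 6 flanks lay between 37.2 and 45.6 in all 6 libraries. Among peaks with a fold enrichment of at least 4, the METTL3 knockout was at 1.13 times control and the libraries overlapped.

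Within HIST1, the first stretch held 14 and 21 peaks in control, 8 and 12 in the CFL1 knockout, and 22 and 23 in the METTL3 knockout. The second held 4 and 3 in control, 0 in both CFL1 knockout libraries, and 2 and 4 in the METTL3 knockout. The third held 2 and 3 in control, 4 and 3 in the CFL1 knockout, and 6 and 5 in the METTL3 knockout. The CFL1 knockout's lower count thus came from the first and second stretch.

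**Figure D3:**
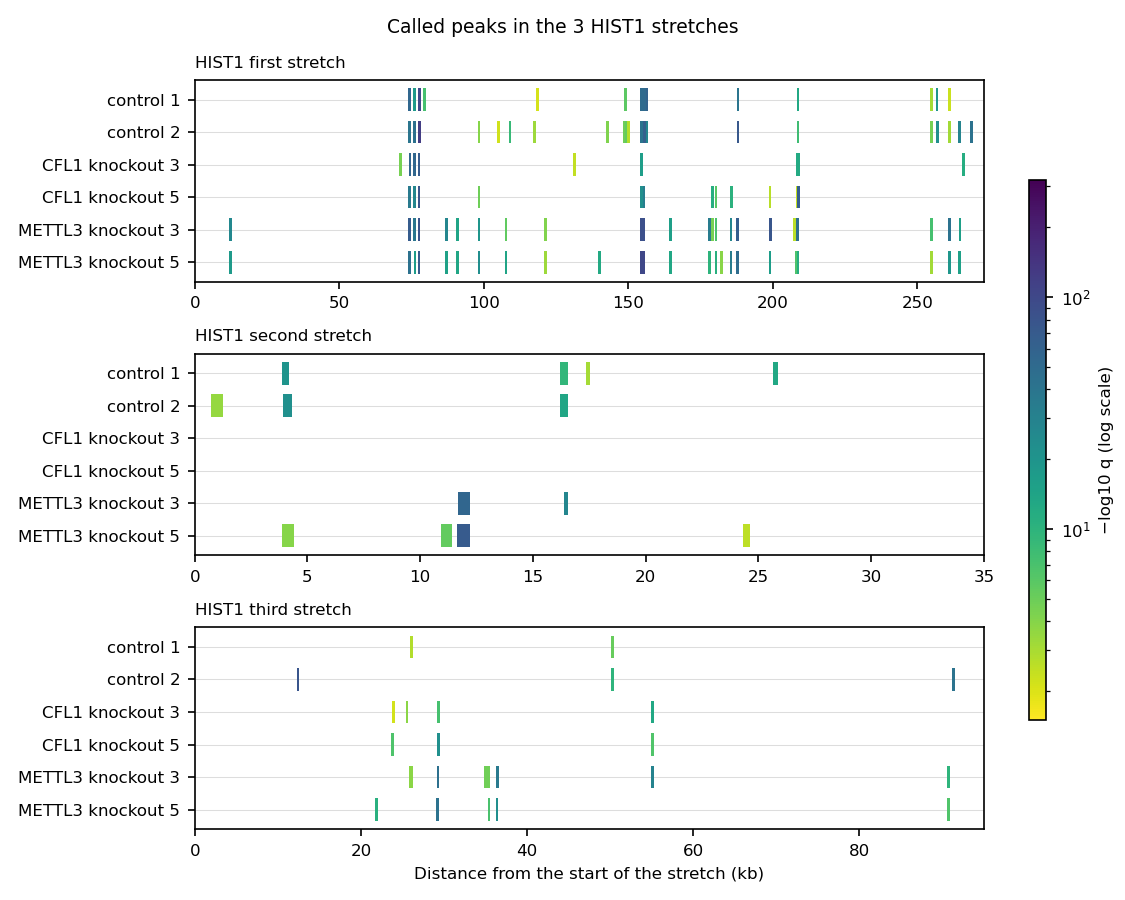
Peaks of each library along the 3 HIST1 stretches, by distance from the start of each stretch in kb; bars are called peaks, coloured by −log10 q on a log scale. The first stretch holds a group of sites shared by all 6 libraries, and the second holds no peak in either CFL1 knockout library.

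The HIST1 sites called in all 6 libraries, 5 in number, all lay in the first stretch, and the 4 strongest showed no common order of the groups. At chr6:26094277-26095045, the strongest HIST1 site, −log10 q was 98.4 and 123 in control, 68.5 and 77.2 in the CFL1 knockout, and 81.0 and 70.8 in the METTL3 knockout. Control was higher there in both libraries. Its neighbours chr6:26090991-26091815 and chr6:26092777-26093428 ranged from 36.2 to 68.1 and from 16.9 to 54.3, with the groups overlapping. These neighbouring sites were assigned to no gene and need not come from histone transcripts. At chr6:26171009-26172968 the values were 51.1 and 62.3 in control, 16.2 and 33.0 in the CFL1 knockout, and 86.4 and 102 in the METTL3 knockout. The fold enrichment at that site did not follow its −log10 q: it was 8.85 and 9.12 in control, 2.41 and 3.58 in the CFL1 knockout, and 3.51 and 4.74 in the METTL3 knockout, so that control was highest. These control values are from summits at 26172739 and 26172736, and the METTL3 knockout values from 26171184 and 26171194. Control also had a peak near the latter, with fold enrichment of 10.5 and 8.33 and −log10 q of 49.6 and 40.6. Control was thus highest in fold enrichment there too.

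Sites called in both control libraries and in no knockout library were few: 4 of 78 (5.13%), beside 15.8% of the flank sites and 13.3% of all sites. All 4 were in HIST1. The strongest was chr6:26173155-26173725, beside the last site above, with −log10 q of 59.4 and 27.5 and fold enrichment of 17.8 and 7.51 in control 1 and 2. The other 3, chr6:26165968-26166661, chr6:26273728-26274007 and chr6:27820118-27820475, had −log10 q between 5.23 and 21.9.

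Sites called in both METTL3 knockout libraries and nowhere else were many: 15 of 78 (19.2%), beside 5.14% of the flank sites and 2.65% of all sites. With METTL3 knockout 3 left out, so that a call in the other library sufficed, the share was 27.3% beside 9.49% of all sites, and without METTL3 knockout 5 it was 21.3% beside 9.004%. The strongest was chr6:27101640-27102217 in the second HIST1 stretch, with −log10 q of 55.3 and 70.4 and fold enrichment of 5.52 and 7.41. Further ones in HIST1 were chr6:26104013-26104291, chr6:26194958-26195222 and chr6:27806273-27806539, with −log10 q of at most 35.5 and fold enrichment from 2.26 to 4.95. The corresponding count for the CFL1 knockout was 1 of 78 (1.28%), about the share of the flank sites (1.33%), beside 2.93% of all sites. Sites called in all 4 knockout libraries and in no control library were 5 of 78 (6.41%), beside 4.15% of the flank sites and 3.63% of all sites. Of these, 4 were the HIST2 sites above, and the other was chr6:27799099-27799430, with −log10 q of 7.24 and 22.1 in the CFL1 knockout and 44.9 and 42.3 in the METTL3 knockout. Sites called in all 6 libraries, 9 of 78 (11.5%), were about as frequent as over all sites (10.8%).

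**Figure D4:**
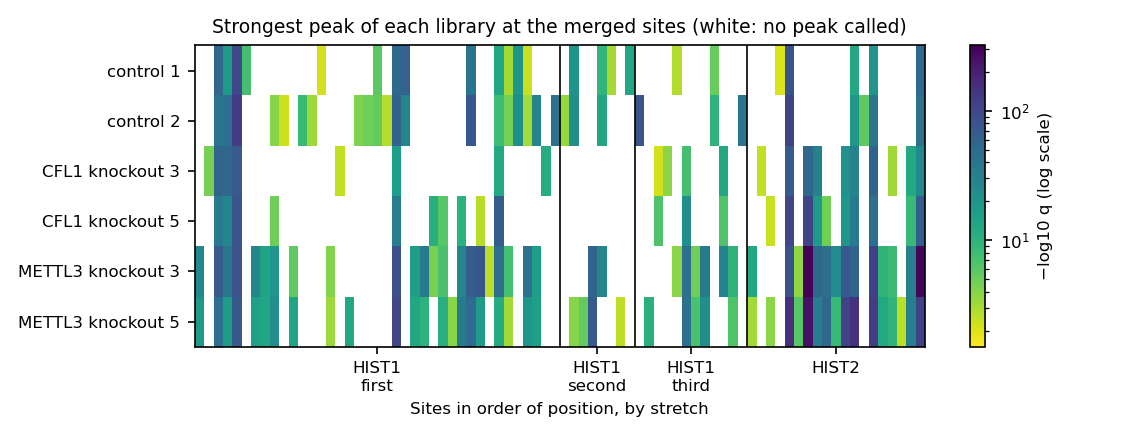
The highest −log10 q of each library (row) at each of the 78 merged histone sites (columns, in order of position within each stretch), on a log colour scale; white means that no peak was called. The METTL3 knockout libraries fill columns in every stretch that are white in the other groups, 15 of them in both METTL3 knockout libraries and nowhere else.

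Counted by strength, with a missing peak taken as lowest, −log10 q was higher in both METTL3 knockout libraries than in both control libraries at 31 of 78 sites (39.7%). The share was 21.6% of the flank sites and 15.2% of all sites. At 6 sites (7.69%) −log10 q was lower, beside 20.2% of the flank sites and 19.7% of all sites. At 25 of the 31 higher sites no control peak was called, so these restate which sites were called and do not compare the strength of peaks. At a wide merged site, the strongest peaks compared can lie at different positions. In HIST2, 13 of 19 sites were higher and 0 lower, and in HIST1, 18 of 59 were higher and 6 lower. For the CFL1 knockout against control, 9 of 78 sites were higher (11.5%), beside 13.9% of the flank sites and 14.3% of all sites. Lower were 11 (14.1%), beside 23.5% of the flank sites and 20.1% of all sites. These split by cluster as well, with 6 higher and 0 lower in HIST2 and 3 higher and 11 lower in HIST1. No control peak was called at 7 of the 9, and no CFL1 knockout peak at 9 of the 11. In HIST2, 4 of the 6 had no control peak. The others were the wide sites chr1:149812364-149814919 and chr1:149821617-149825798, where the strongest peaks of the 2 groups had different summits. Between the knockouts, 34 of 78 sites (43.6%) were higher in both METTL3 knockout than in both CFL1 knockout libraries. The share was 17.1% of the flank sites and 10.7% of all sites. Only 1 site (1.28%) was lower, beside 5.64% of the flank sites and 9.18% of all sites. At 19 of the 34, no CFL1 knockout peak was called.

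The overlap of peaks between lists gave the same contrast from each side. Of the 60 control peaks in the stretches, 24 had no METTL3 knockout peak over them, 40.0% with an exact 95% binomial interval of 27.6% to 53.5%. The share over all control peaks was 57.7%. Of the 95 peaks called in the METTL3 knockout, 62 had no control peak, 65.3% (54.8% to 74.7%), beside 49.3% over the whole METTL3 list. For the CFL1 knockout both shares over all stretches were nearer to the series. Of the 60 control peaks, 37 had no CFL1 knockout peak, 61.7% (48.2% to 73.9%), beside 57.8% of all control peaks. By cluster it was 34 of 47 (72.3%, 57.4% to 84.4%) in HIST1 and 3 of 13 (23.1%, 5.04% to 53.8%) in HIST2. The HIST1 share was thus above that of all control peaks, which its interval still included, and the HIST2 share was below it. In the other direction 34 of 58 CFL1 knockout peaks, 58.6% (44.9% to 71.4%), had no control peak, beside 53.2% of all CFL1 knockout peaks. These intervals cover counting error only, and peaks of the 2 libraries of a group can be over the same site.

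The histone peaks of the CFL1 knockout mostly lay over peaks of the METTL3 knockout. Of the 58 peaks of the CFL1 knockout, 7 (12.1%) lay outside every METTL3 knockout peak. The share was 21.7% in the flanks and 34.9% over all CFL1 knockout peaks. By cluster it was 1 of 31 (3.23%) in HIST2 and 6 of 27 (22.2%) in HIST1, where it was near that of the flanks. Of the 95 peaks of the METTL3 knockout, 49 (51.6%) lay outside every CFL1 knockout peak. The share was 34.9% in the flanks and 29.6% over all METTL3 knockout peaks. Here HIST1 had 39 of 62 (62.9%), while HIST2, with 10 of 33 (30.3%), was near the share over all peaks. Between the 2 libraries of 1 group, the mean share of histone peaks overlapped was 67.9% for control, beside 71.1% over all peaks. For the CFL1 knockout it was 77.6%, beside 63.4%, and for the METTL3 knockout 86.3%, beside 69.3%.

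Histone peaks tended to be strong by significance and modest by enrichment. Their median −log10 q was 12.8 and 20.8 in control, 18.3 and 22.2 in the CFL1 knockout, and 28.1 and 14.4 in the METTL3 knockout, above the median over all peaks (7.52 to 11.3) in 6 of 6 libraries. The median fold enrichment of histone peaks was between 3.53 and 4.34, below that over all peaks in 5 of 6 libraries. Among histone peaks with −log10 q of at least 10, those with a fold enrichment under 3 made up 13.3% and 36.8% in control, 23.8% and 33.3% in the CFL1 knockout, and 11.4% and 18.8% in the METTL3 knockout. Over all peaks of that significance, the share ranged from 7.32% to 11.1% and was lower than in the stretches in 6 of 6 libraries. The numbers behind these shares are small, from 2 of 15 histone peaks in control 1 to 7 of 19 in control 2.

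Among the sites called in 1 library only, which were 28 of 78 (35.9%) beside 48.3% of all sites, the 3 strongest were narrow, of low fold enrichment and all from control 2. At chr6:27782310-27782518, the strongest site of the third HIST1 stretch, −log10 q was 77.1 and fold enrichment 2.52. The others, chosen after their values were seen, were chr6:26285539-26285752 (−log10 q 42.3, fold 1.96) and chr6:27861215-27861419 (−log10 q 41.7, fold 2.04). These 3 were also the histone sites nearest to a stretch edge on their sides, 12309, 4248 and 3581 bases inside it.

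Few sites lay close to the bounds of the stretches. The nearest sites inside the other edges lay 702 to 26483 bases in, and their highest −log10 q ranged from 3.49 to 299. The nearest sites outside the 8 edges lay 2304 to 18587 bases away, with a highest −log10 q of 1.96 to 15.2.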

How the data were processed

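Peak lists of antibody-selected RNA from control, CFL1 knockout and METTL3 knockout PANC-1 cells were analysed. They stand for 12 of the 32 samples labelled, and the other 20 were not analysed here. Groups follow the titles, since the treatment label of the control antibody samples names no antibody step. Reads were aligned with STAR to hg19, peaks were called with MACS2, and bedtools was used, per the submitters' processing notes; the sources used here give no versions or settings, nor whether input served as background. The authors' deposited values per peak are a fold enrichment (a ratio), −log10 q and the summit position, which served to describe, rank and filter peaks. The 2 other value columns, a score and −log10 p, were not used. Peak names show that the 2 libraries of a list were called separately.

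Identical intervals within a library were collapsed. A peak was shared if it overlapped by at least 1 base, and shares have exact 95% intervals. Group means over libraries were compared by exact permutation tests (Python 3.11.15, SciPy 1.17.1), and the counting was tested on simulated data. Sites named are the strongest called in all 6 libraries, in control only, in all knockout libraries only or in 1 knockout only, the strongest of each stretch, the widest and those nearest the edges. Members and lists were chosen with earlier results of these data known. Alternatives were thresholds on −log10 q and fold, peaks within 100 bases merged, summits, covered bases, overlap of 50%, clusters taken alone and libraries left out. RefSeq tables gave names, order and upstream sequence only. Peak counts per gene and motif searches, which need an hg19 annotation and genome, were not made.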

Additional observations from a re-analysis of the deposited data

Results flagged for a closer look

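In the HIST1 stretches, both CFL1 knockout libraries were below both control libraries and both METTL3 knockout libraries above them, in 4 measures of peak number that share the same peaks. The METTL3 knockout mean exceeded the CFL1 knockout mean by 0.0286 percentage points of a library's peaks, by 43.4 peaks per Mb, by 7.11 kb covered and by 0.842 in density relative to the chromosome 6 flanks. Whether the effects of the 2 knockouts differ was not tested beyond the comparison between them, which 2 libraries a group cannot take below an exact permutation p of 0.333. The HIST2 stretch did not split the knockouts in this way.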

How the results depend on the processing

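Alternatives for HIST1 or HIST2 alone, for the knockouts against each other and for counts of sites were chosen after seeing the data. The METTL3 knockout stayed above control in share of peaks (1.61 to 3.10) and density over flanks (1.22 to 3.59) under all 14 alternatives of each. Some of the 14 could not change these ratios: merging joined no peaks, and leaving out a CFL1 knockout library does not enter them. The CFL1 knockout against control fell below 1 with a fold of at least 4 (share 0.709, density 0.883) and without HIST2 (0.655, 0.632), and in share without control 1 (0.979). METTL3 over CFL1 knockout in HIST2 turned to 0.916 as density over flanks and to 0.966 at −log10 q of at least 10. CFL1 knockout peaks without a control peak were 51.1% and 54.8% at −log10 q of at least 5 and 10, 50% at a fold of at least 4, 55.6% without HIST2 and 62.1% when an overlap of 50% of the shorter peak was required. Control peaks without a CFL1 knockout peak were 51.1% and 44.1% at those −log10 q thresholds, 72.3% without HIST2 and 23.1% in HIST2 alone. Control peaks without a METTL3 knockout peak were 29.4% at −log10 q of at least 10, 30% at a fold of at least 4, 46.8% without HIST2 and 15.4% in HIST2 alone. Sites higher in the METTL3 knockout made up 68.4% in HIST2 alone, both against control and against the CFL1 knockout. Leaving out 1 library at a time gave 0.979 to 1.25 for the CFL1 knockout share over control, 61.7% to 70.5% for METTL3 knockout peaks without a control peak, 39.7% to 54.7% for sites higher than in control (16.2% to 27.6% of all sites) and 46.2% to 56.0% for sites higher than in the CFL1 knockout (11.8% to 22.7% of all sites). Merging peaks within 100 bases joined none. The causes were not tested. No paired analysis was possible because peak names number the knockouts' libraries 3 and 5, not by the labels' replicate numbers. Without read depth, a missing peak cannot be told apart from too few reads.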
